A study of Mus musculus with 12 samples.

Results

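The mitosis genes were a set of 42 genes for mitotic cyclins, kinases, kinetochore, spindle, condensin and cytokinesis proteins. They were chosen by name and function rather than by level, though with earlier results of these data known. Of the 42 genes, 41 carried at least 1 probe set annotated to that gene alone, 90 probe sets among the 45037 on the array that were not controls. Ccnb1 had no such probe set and is not measured here. All 41 passed the filter on low signal and were tested among 13702 genes, each through its brightest probe set. They were measured in whole testes of mice at postnatal day 7, on 4 arrays of wild-type testes, 4 of Sohlh1-/- testes and 4 of Sohlh2-/- testes. All 12 arrays came from the hybrid background given as C57BL/6, 129S5, SvEvBrd, and each held RNA pooled from 3 testes of 3 animals. The labels name no Cre line, promoter or cell type for either loss. Each p-value below is set by how far such pools differ.

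A dividing cell condenses its chromosomes, attaches them to a spindle through kinetochores, holds anaphase back until attachment is complete, and then separates the chromatids and pinches into daughter cells. Most of the genes for these steps are transcribed late in the cell cycle, so their RNA in a tissue follows how many cells are dividing and how strongly those cells transcribe them. In the testis of a young mouse both spermatogonia and the supporting Sertoli cells divide. The transcription factors SOHLH1 and SOHLH2, of the basic helix-loop-helix kind, are made in spermatogonia and are known to be needed for these cells to differentiate.

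Several arrays stood apart before any mitosis gene was considered. The Sohlh1 probe set read 1125 to 1233 on the wild-type arrays and 50.2 to 104 on the arrays labelled Sohlh1 knockout 2, 3 and 4, but 595 on the array labelled Sohlh1 knockout 5, where Sohlh2 read 94.4. The array labelled Sohlh2 knockout 1 showed the opposite, with Sohlh2 at 1847 and Sohlh1 at 126, while the other arrays labelled Sohlh2 knockout held Sohlh2 at 73.2 to 157 and wild-type arrays at 885 to 1200. Thus 2 arrays went against their labels, each towards the other knockout, and exchanging them would leave the 8 knockout arrays as a whole unchanged. The ratio of 3' to 5' signal of the Gapdh control was 1.17 on Sohlh1 knockout 2 and 1.63 on the array labelled Sohlh2 knockout 1, against at most 0.818 elsewhere. The actin control gave 2.10 and 3.56 there, against at most 1.45 elsewhere. These 3 arrays are called the doubted arrays. Sertoli cell markers were abundant on every array, with 18 genes summing to 122834 to 139802 on wild-type arrays, and 16 germ cell markers summed to 38565 to 44366.

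With both knockouts averaged against wild type, 15 of 41 fell at an adjusted p under 0.05, against 3.88% of all genes tested, and 0 rose, against 3.05% of all genes. The 15 were Aurkb, Plk1, Ccna2, Kif20a, Ube2c, Cenpf, Kif23, Prc1, Tpx2, Espl1, Cenpa, Ncapd2, Birc5, Anln and Ttk. In Sohlh1 knockout testes alone 14 of 41 fell, against 2.69% of all genes, and in Sohlh2 knockout testes alone 7 of 41 fell, against 2.15%. The 7 were Aurkb, Plk1, Ccna2, Kif20a, Cenpf, Tpx2 and Prc1. Both knockouts were set against the same 4 wild-type arrays. The median log2 difference of the 41 genes was -0.28 with both knockouts averaged, -0.31 for Sohlh1 and -0.23 for Sohlh2, beside medians over all genes of 0.028, 0.034 and 0.022. The difference was negative for 35, 36 and 32 of the 41 genes. In 10 genes all 8 knockout arrays read below all 4 wild-type arrays, which happened in 3.58% of all genes. In RNA from whole testis, fewer cells of a type and less RNA per cell cannot be told apart.

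These counts rested in part on single arrays. Without wild type 5 the count fell to 9 for the average of both knockouts, 9 for Sohlh1 and 4 for Sohlh2. The shares of all genes lower fell alongside, to 2.04%, 1.43% and 1.07%. Without Sohlh2 knockout 3-1 the count was 11 for Sohlh2, with 1.70% of all genes lower. Without the 2 arrays of doubted label it was 16 for the average, 15 for Sohlh1 and 8 for Sohlh2. The shares of all genes lower were then 4.62%, 3.42% and 2.22%. Without the 3 doubted arrays 21 members fell in the average, against 5.22% of the 13334 genes then tested. For Sohlh1 17 fell, against 2.75%, and for Sohlh2 10 fell, against 3.25%. Bub1b, Incenp, Cdc20, Kif2c, Smc2 and Top2a were the 6 genes added in the average. Of these Incenp had the largest difference, -0.51 with an adjusted p of 0.00383, against -0.29 and 0.265 on all arrays.

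Of the 14 calls in Sohlh1 knockout testes, 5 ended when 1 array was left out. For Ube2c these were any wild-type or any Sohlh1 knockout array, with adjusted p of 0.0526 to 0.0781. For Espl1 they were wild type 4, 5 or 6, Sohlh1 knockout 2, 4 or 5 or Sohlh2 knockout 5 (0.0505 to 0.132), and for Ncapd2 wild type 5 or 6 or Sohlh1 knockout 4 (0.0518 to 0.0701). For Anln they were any wild-type or Sohlh1 knockout array and Sohlh2 knockout 4 or 5 (0.0581 to 0.136), and for Kif20a wild type 5 (0.0564). Of the 7 calls in Sohlh2 knockout testes, 3 ended. Prc1 did so without any wild-type array or without Sohlh2 knockout 4 or 5 (0.0521 to 0.0891), Kif20a without wild type 5 or 6 (0.0865 and 0.0784) and Tpx2 without wild type 4 or 5 (0.0515 and 0.0547). Aurkb and Plk1 kept an adjusted p under 0.05 in both knockouts under every alternative in which they were tested. After median centring the Sohlh1 calls of Birc5 and Cenpa ended (0.0577 and 0.0549), and without the 3 doubted arrays those of Ube2c and Espl1 (0.0578 and 0.136).

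**Figure D1:**
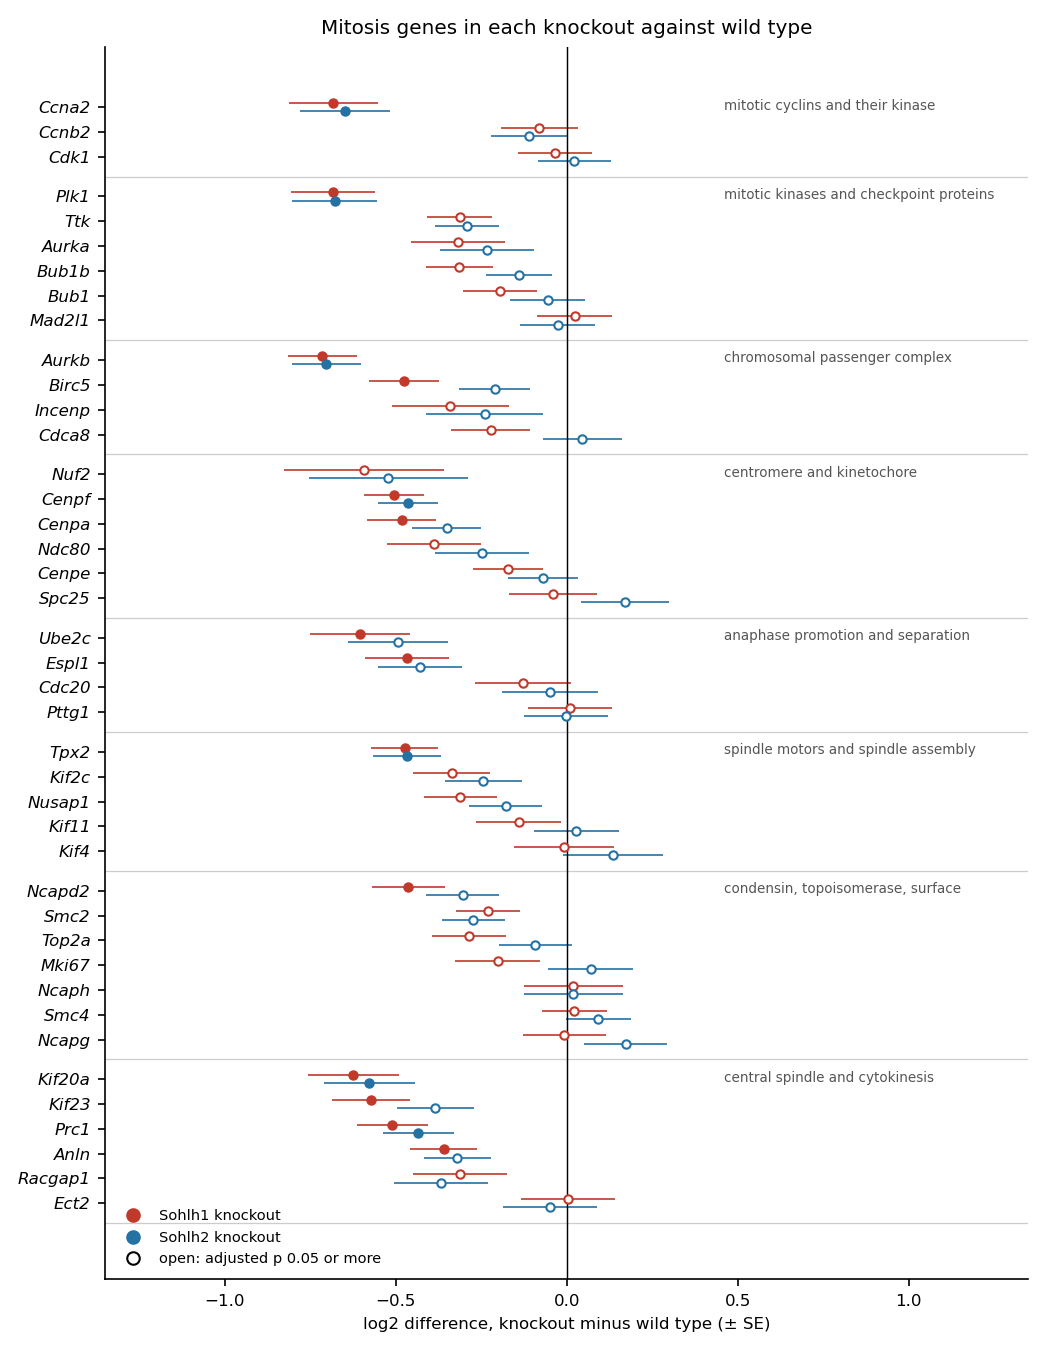
Log2 difference of each mitosis gene from wild type, with its standard error, for Sohlh1 knockout (red) and Sohlh2 knockout (blue) testes, 4 arrays a group, by role. Filled points have an adjusted p under 0.05, and all 14 filled red and 7 filled blue points lie left of 0.

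Promoters were set beside these values because many mitosis genes share short elements there. The hexamer TTTGAA is the core of the cell cycle homology region bound by MuvB complexes, CCAAT is the core bound by NF-Y, and CANNTG is the E-box to which helix-loop-helix factors bind. The 250 bases before the start were available for 35 of the 41 genes in the RefSeq table of the GRCm38.p6 build, which covers 27018 genes. Both strands were searched and a gene with several starts counted if any start held the motif. CCAAT stood before 26 of the 35 mitosis genes, 74.3%, and before 37.5% of all genes. TTTGAA stood before 14, 40%, and before 18.3% of all genes. Both together stood before 37.1% of the mitosis genes and 7.34% of all genes, and CANNTG before 54.3% and 69.3%. Of the 11 genes with a promoter that fell in the average of both knockouts, 9 held CCAAT, 4 held TTTGAA and 8 held CANNTG. Of the 24 others, 17, 10 and 11 did. These are matches of letters and no measurement of binding.

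CCAAT and TTTGAA stood together before 4 of the 11 fallen genes with a promoter, 36.4%, and before 9 of the 24 others, 37.5%. The fallen genes that held TTTGAA were chosen for printing by that motif, and all 4 also hold CCAAT. They are Prc1 (chr7:80294226-80294475, plus strand), Ube2c (chr2:164769679-164769928, plus strand), Espl1 (chr15:102296043-102296292, plus strand) and Ncapd2 (chr6:125191587-125191836, minus strand), each 5' to 3' along the gene, with the start site just after the last base. Capitals mark CCAAT and TTTGAA on either strand, so that ATTGG and TTCAAA are the same elements on the other strand. Matches to CANNTG are left in lower case unless they overlap a capital stretch, which happened at 1 place in Prc1 and 1 in Ube2c.
Prc1: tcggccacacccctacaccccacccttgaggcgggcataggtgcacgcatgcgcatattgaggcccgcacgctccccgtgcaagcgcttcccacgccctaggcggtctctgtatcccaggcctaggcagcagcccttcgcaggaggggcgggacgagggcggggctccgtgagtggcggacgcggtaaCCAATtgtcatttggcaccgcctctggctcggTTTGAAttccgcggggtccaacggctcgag
Ube2c: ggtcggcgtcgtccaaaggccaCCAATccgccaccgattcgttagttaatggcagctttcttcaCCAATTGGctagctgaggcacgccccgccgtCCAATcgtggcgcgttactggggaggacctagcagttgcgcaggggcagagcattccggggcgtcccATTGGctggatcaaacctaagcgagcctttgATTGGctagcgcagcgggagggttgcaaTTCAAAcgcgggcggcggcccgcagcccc
Espl1: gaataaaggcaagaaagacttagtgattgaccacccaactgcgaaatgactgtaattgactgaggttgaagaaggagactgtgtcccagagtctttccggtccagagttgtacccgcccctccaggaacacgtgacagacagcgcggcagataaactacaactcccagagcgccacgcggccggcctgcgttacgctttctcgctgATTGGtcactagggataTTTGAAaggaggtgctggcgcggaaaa
Ncapd2: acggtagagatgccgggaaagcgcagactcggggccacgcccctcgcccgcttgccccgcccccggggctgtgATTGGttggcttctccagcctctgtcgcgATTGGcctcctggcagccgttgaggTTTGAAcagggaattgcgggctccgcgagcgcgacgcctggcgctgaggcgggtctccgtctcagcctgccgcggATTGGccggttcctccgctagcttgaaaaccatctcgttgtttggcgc
The leftmost base of the TTTGAA match lay 30 bases before the start in Prc1, 29 in Ube2c, 27 in Espl1 and 123 in Ncapd2. CCAAT matched at 1 place in this Prc1 window, 6 in Ube2c, 1 in Espl1 and 3 in Ncapd2. The table lists another Prc1 start, 25 bases upstream, whose window ends inside this TTTGAA and so does not hold it whole.

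Mitotic cyclins pair with the kinase Cdk1 to drive entry into mitosis. Of the 3 measured genes of this role, 1 fell with both knockouts averaged. Signals below are the processed MAS5 values in arbitrary units, always in the order wild type 3, 4, 5 and 6, then Sohlh1 knockout 2, 3, 4 and 5, then Sohlh2 knockout 1, 3-1, 4 and 5. Ccna2, the A-type cyclin of S phase and mitotic entry, read 3332, 4420, 4742 and 5088 on wild-type arrays, 2892, 2971, 2370 and 2605 on Sohlh1 knockout arrays, and 2233, 2988, 2869 and 3050 on Sohlh2 knockout arrays. Every knockout array was below the lowest wild-type array. Its log2 difference was -0.67 ± 0.11 (SE) with both knockouts averaged (adjusted p = 0.00185), -0.68 for Sohlh1 (adjusted p = 0.00623) and -0.65 for Sohlh2 (adjusted p = 0.00999). Ccnb2, a B-type cyclin, read 2902, 2717, 2650 and 2554 in wild type, 2805, 2417, 2336 and 2689 in Sohlh1 knockout, and 2210, 3229, 2468 and 2231 in Sohlh2 knockout. The groups overlapped, and the highest of all 12 readings was on Sohlh2 knockout 3-1. Its difference was -0.095 ± 0.097 (adjusted p = 0.619). Cdk1 itself gave -0.0062 ± 0.093 (adjusted p = 0.977), its mean signal in the knockouts being 99.6% of wild type.

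Among 6 mitotic kinases and checkpoint proteins, 2 fell. Plk1, the polo-like kinase of centrosome maturation, mitotic entry and cytokinesis, read 874, 1072, 1149 and 1085 in wild type, 588, 588, 735 and 667 in Sohlh1 knockout, and 558, 760, 580 and 699 in Sohlh2 knockout. The groups did not overlap, and both knockouts covered nearly the same range. The difference was -0.68 ± 0.11 with both averaged (adjusted p = 0.00096), and the knockout mean of 647 ± 78.4 (SD, n = 8) was 61.9% of the wild-type mean of 1045 ± 119 (SD, n = 4). Ttk, a kinase that starts the spindle checkpoint at unattached kinetochores, read 1248, 1395, 1435 and 1302 in wild type, 1262, 1040, 999 and 1030 in Sohlh1 knockout, and 1088, 1128, 1130 and 1035 in Sohlh2 knockout. Sohlh1 knockout 2, with a high 3' to 5' ratio, lay within the wild-type range and the other 7 lay below it. The difference was -0.30 ± 0.082 (adjusted p = 0.0338 with both averaged, 0.0729 for Sohlh1 and 0.106 for Sohlh2). The Ttk call ended without any of 7 single arrays. Its adjusted p was 0.114, 0.133 and 0.0724 without wild type 4, 5 and 6, 0.0605, 0.0611 and 0.0578 without Sohlh1 knockout 3, 4 and 5, and 0.0617 without Sohlh2 knockout 5. It was 0.117 after median centring and 0.0513 without a variance trend, and the log2 difference was 0.029 as the mean of its probe sets. The other 4 did not pass. Aurka, the Aurora kinase of spindle poles, gave -0.28 ± 0.12 (adjusted p = 0.187), Bub1b -0.23 ± 0.084 (adjusted p = 0.121), Bub1 -0.13 ± 0.095 (adjusted p = 0.475) and Mad2l1 -0.0020 ± 0.095 (adjusted p = 0.993). The last 3 encode proteins of the spindle checkpoint.

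The chromosomal passenger complex corrects faulty attachments and later guides cytokinesis. Of its 4 subunits 2 fell. Aurkb, its Aurora kinase, had the largest difference among all 41 genes. It read 1131, 1033, 1001 and 1131 in wild type, 727, 607, 619 and 645 in Sohlh1 knockout, and 574, 698, 647 and 702 in Sohlh2 knockout. All 8 knockout arrays lay well below the wild type and no array stood apart within a group. The difference was -0.71 ± 0.087 with both averaged (adjusted p = 8.76e-05), -0.72 for Sohlh1 (adjusted p = 0.000466) and -0.70 for Sohlh2 (adjusted p = 0.000627). Birc5 encodes survivin, which targets the complex to centromeres. It read 1872, 1566, 1695 and 1578 in wild type, 1230, 1120, 1257 and 1195 in Sohlh1 knockout, and 1614, 1613, 1358 and 1229 in Sohlh2 knockout. All arrays labelled Sohlh1 knockout lay below wild type, whereas 2 of those labelled Sohlh2 knockout, 1 and 3-1, lay within its range. The targeted genes on the first of these 2 go against its label, towards the Sohlh1 knockout. The difference was -0.48 ± 0.10 for Sohlh1 (adjusted p = 0.0134), -0.21 ± 0.10 for Sohlh2 (adjusted p = 0.301) and -0.34 ± 0.089 with both averaged (adjusted p = 0.0274). Without the 2 arrays of doubted label it was -0.47 for Sohlh1 (adjusted p = 0.0173) and -0.26 for Sohlh2 (adjusted p = 0.213). The averaged Birc5 call ended without any of 6 single arrays, at an adjusted p of 0.0843, 0.0507, 0.0897 and 0.0540 without wild type 3, 4, 5 and 6, 0.0517 without Sohlh1 knockout 3 and 0.0529 without Sohlh2 knockout 4. It also ended at 0.101 after median centring and 0.0534 without a variance trend. The scaffold subunit Incenp gave -0.29 ± 0.15 (adjusted p = 0.265) and Cdca8, which encodes borealin, -0.089 ± 0.10 (adjusted p = 0.659).

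Centromere and kinetochore genes numbered 6, and 2 fell. Cenpa, the histone variant that marks centromeres, read 3005, 2637, 2713 and 2538 in wild type, 2207, 1797, 1792 and 1996 in Sohlh1 knockout, and 2164, 2480, 1988 and 1920 in Sohlh2 knockout. The groups did not overlap, though Sohlh2 knockout 3-1 came within reach of the lowest wild-type array. The difference was -0.42 ± 0.087 with both averaged (adjusted p = 0.00788), -0.48 for Sohlh1 (adjusted p = 0.0114) and -0.35 for Sohlh2 (adjusted p = 0.0674). From the dimmer of its tested probe sets alone it was -0.68 (adjusted p = 0.174). Cenpf, a large kinetochore protein that accumulates before mitosis, read 1959, 2407, 2298 and 2249 in wild type, 1573, 1701, 1549 and 1435 in Sohlh1 knockout, and 1642, 1642, 1592 and 1547 in Sohlh2 knockout. Again every knockout array was below every wild-type array, and those of Sohlh2 knockout lay close together. The difference was -0.48 ± 0.076 (adjusted p = 0.000891), and -0.25 (adjusted p = 0.364) as the mean with 2 dim probe sets. The Ndc80 complex, which grips microtubules, was split. Nuf2 gave -0.56 ± 0.20 (adjusted p = 0.112), Ndc80 -0.32 ± 0.12 (adjusted p = 0.123) and Spc25 0.064 ± 0.11 (adjusted p = 0.791), none of which passed. Nuf2 read 707 to 1191 in wild type, and 7 of 8 knockout arrays lay below that, at 413 to 703, with Sohlh2 knockout 3-1 at 1187. The kinetochore motor gene Cenpe gave -0.12 ± 0.089 (adjusted p = 0.464).

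Anaphase begins when the anaphase-promoting complex marks securin for destruction and frees separase. Of the 4 genes of this step 2 fell. Ube2c, the ubiquitin-conjugating enzyme of that complex, read 3927, 3827, 4013 and 3594 in wild type, 2590, 2532, 2646 and 2322 in Sohlh1 knockout, and 2098, 4051, 2750 and 2345 in Sohlh2 knockout. Sohlh2 knockout 3-1 exceeded every wild-type array, and the other 7 knockout arrays were all below. The difference was -0.55 ± 0.13 with both averaged (adjusted p = 0.0140), -0.60 for Sohlh1 (adjusted p = 0.0249) and -0.49 for Sohlh2 (adjusted p = 0.0760). The averaged p was 0.0588 without wild type 5. Espl1, which encodes separase, read 1009, 1211, 1342 and 1486 in wild type, 770, 1027, 891 and 931 in Sohlh1 knockout, and 850, 916, 1027 and 912 in Sohlh2 knockout. The groups overlapped only at wild type 3, which was just below Sohlh1 knockout 3 and Sohlh2 knockout 4. The difference was -0.45 ± 0.11 (adjusted p = 0.0159, and 0.0714 and 0.0832 without wild type 5 and 6). The securin gene Pttg1 gave 0.0029 ± 0.11 (adjusted p = 0.991), and Cdc20, the activator of the complex, -0.089 ± 0.12 (adjusted p = 0.726).

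Of 5 genes for spindle motors and spindle assembly 1 fell. Tpx2, which activates Aurora A on spindle microtubules, read 1758, 2057, 2152 and 2041 in wild type, 1497, 1559, 1423 and 1270 in Sohlh1 knockout, and 1414, 1528, 1562 and 1273 in Sohlh2 knockout. Every knockout array was below every wild-type array. The difference was -0.47 ± 0.086 with both averaged (adjusted p = 0.00298), and -0.28 (adjusted p = 0.130) as the mean of its 4 probe sets. Kif2c, a kinesin that takes microtubule ends apart, read 1174, 1130, 1209 and 966 in wild type, 907, 766, 881 and 981 in Sohlh1 knockout, and 1108, 960, 875 and 836 in Sohlh2 knockout. The arrays labelled Sohlh1 knockout 5 and Sohlh2 knockout 1 lay within the wild-type range and the other 6 below it. Its difference of -0.29 ± 0.098 did not pass (adjusted p = 0.0869). Neither did that of Nusap1, a microtubule bundler near chromosomes, at -0.25 ± 0.092 (adjusted p = 0.126). The motor gene Kif11, whose protein pushes spindle poles apart, gave -0.057 ± 0.11 (adjusted p = 0.811) and the chromokinesin gene Kif4 0.064 ± 0.13 (adjusted p = 0.821).

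Condensin and topoisomerase shape mitotic chromosomes, and of the 7 genes measured for chromosome structure 1 fell. Ncapd2, a regulatory subunit of condensin, read 2223, 1943, 2171 and 2291 in wild type, 1248, 1739, 1561 and 1737 in Sohlh1 knockout, and 1629, 1791, 1879 and 1674 in Sohlh2 knockout. The groups did not overlap, and Sohlh1 knockout 2 was the lowest array. The difference was -0.38 ± 0.093 with both averaged (adjusted p = 0.0186), -0.46 for Sohlh1 (adjusted p = 0.0197) and -0.30 for Sohlh2 (adjusted p = 0.141). The averaged p was 0.0634 and 0.0762 without wild type 5 and 6. As the mean with a dim probe set the averaged difference was -0.068 (adjusted p = 0.837). Smc2, an ATPase core subunit of condensin, read 2733, 2372, 2846 and 2225 in wild type, 2400, 2145, 2043 and 2054 in Sohlh1 knockout, and 2080, 2137, 2043 and 2107 in Sohlh2 knockout. Sohlh1 knockout 2 lay within the wild-type range and the other 7 below it. The difference of -0.25 ± 0.080 did not pass (adjusted p = 0.0699). The remaining condensin genes Ncapg, Ncaph and Smc4 gave 0.083 ± 0.11, 0.019 ± 0.13 and 0.057 ± 0.082, with adjusted p of 0.703, 0.950 and 0.740. Top2a, which untangles DNA, gave -0.19 ± 0.093 (adjusted p = 0.243). Mki67, a coat protein of mitotic chromosomes used as a proliferation marker, gave -0.066 ± 0.11 (adjusted p = 0.778), with knockout signal at 96.8% of wild type.

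The central spindle forms between separating chromosomes and places the contractile ring, and 4 of its 6 genes fell. Kif20a, a kinesin that carries the passenger complex to the midzone, read 1686, 1539, 2060 and 1905 in wild type, 1107, 1231, 1047 and 1242 in Sohlh1 knockout, and 875, 1347, 1305 and 1313 in Sohlh2 knockout. The groups did not overlap, and the lowest reading was on the array labelled Sohlh2 knockout 1. The difference was -0.60 ± 0.12 with both averaged (adjusted p = 0.00419), -0.62 for Sohlh1 (adjusted p = 0.0127) and -0.58 for Sohlh2 (adjusted p = 0.0226). Prc1, the bundler of antiparallel microtubules, read 1798, 1793, 1863 and 1754 in wild type, 1318, 1459, 1171 and 1121 in Sohlh1 knockout, and 1296, 1586, 1239 and 1228 in Sohlh2 knockout. The wild-type arrays lay close together and all 8 knockout arrays were below them. The difference was -0.47 ± 0.090 with both averaged (adjusted p = 0.00401), -0.51 for Sohlh1 (adjusted p = 0.00972) and -0.43 for Sohlh2 (adjusted p = 0.0283). Kif23, the motor subunit of centralspindlin, fell by 0.48 ± 0.099 on the log2 scale (adjusted p = 0.00704). Anln, the scaffold of the contractile ring, fell by 0.34 ± 0.084 (adjusted p = 0.0222), but gave adjusted p of 0.0635, 0.0892 and 0.0510 without wild type 4, 5 and 6 and 0.0600 after median centring. As the mean with its dim probe set the Anln difference was -0.026 (adjusted p = 0.966). Racgap1, the other centralspindlin subunit, gave -0.34 ± 0.12 (adjusted p = 0.0991) and Ect2, a cytokinesis protein it recruits, -0.023 ± 0.12 (adjusted p = 0.938).

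**Figure D2:**
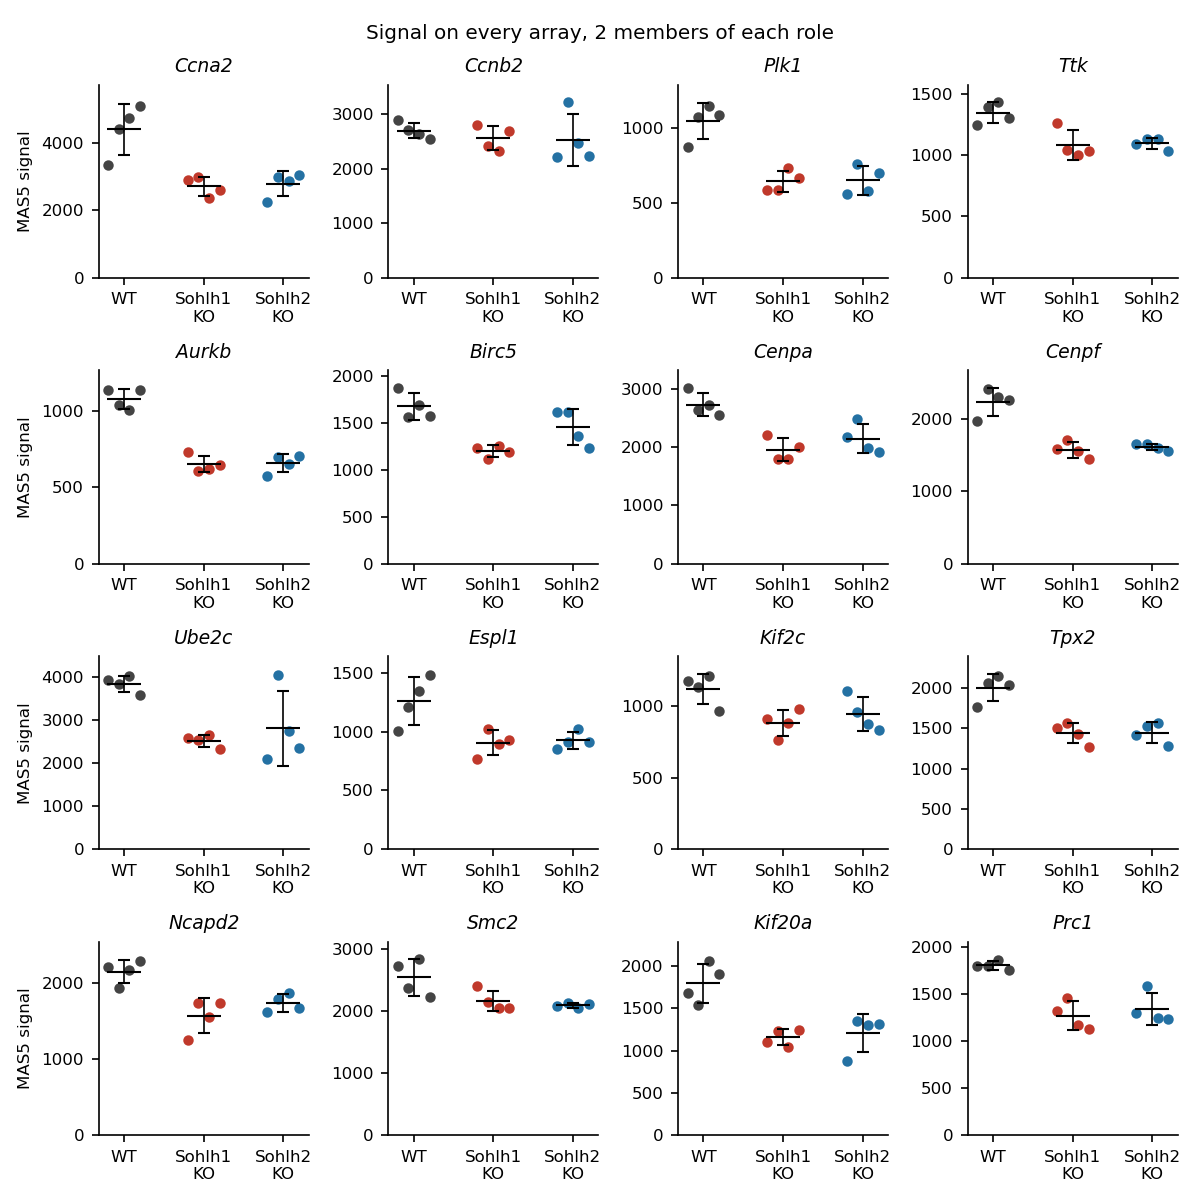
MAS5 signal on every array for 16 mitosis genes, those with the smallest p in each role, with group mean and SD (4 arrays a group, axis from 0). Wild-type and knockout points separate fully for Ccna2, Plk1, Aurkb, Cenpa, Cenpf, Tpx2, Ncapd2, Kif20a and Prc1, and overlap for the others.

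Members with several tested probe sets did not always give the same value. At the level of probe sets 17 of the 81 tested fell, against 2.13% of all 28694 tested. The count was 11 after median centring and 10 without a variance trend, for which the share of all probe sets was not computed. Both probe sets of Aurkb fell, by 0.71 and 0.60 on the log2 scale, and so did both of Prc1, by 0.47 and 0.81. For Ccna2 the probe set that stands for the gene gave -0.67 (adjusted p over probe sets = 0.00596) and the other -0.11 ± 0.11 (adjusted p = 0.642). Racgap1 had probe sets at -0.34 ± 0.12 and 0.12 ± 0.077. Conversely, a probe set of Cdc20 that does not stand for the gene fell by 0.36 (adjusted p = 0.0241), as did one of Bub1b by 0.37 (adjusted p = 0.0326), while those that do gave -0.089 and -0.23. Kif11, at -0.057 from the probe set that stands for it, gave -0.73 ± 0.29 and -0.12 ± 0.15 from its others. Smc4, at 0.057, gave -0.42 ± 0.34 and -0.25 ± 0.30 from its others, and Ncapg, at 0.083, gave -0.29 ± 0.24. None of these other probe sets of Kif11, Smc4 and Ncapg passed. For Cdc20, Bub1b, Ccna2, Racgap1, Kif11, Smc4 and Ncapg, among others, the value depends on which probe set is taken.

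**Figure D3:**
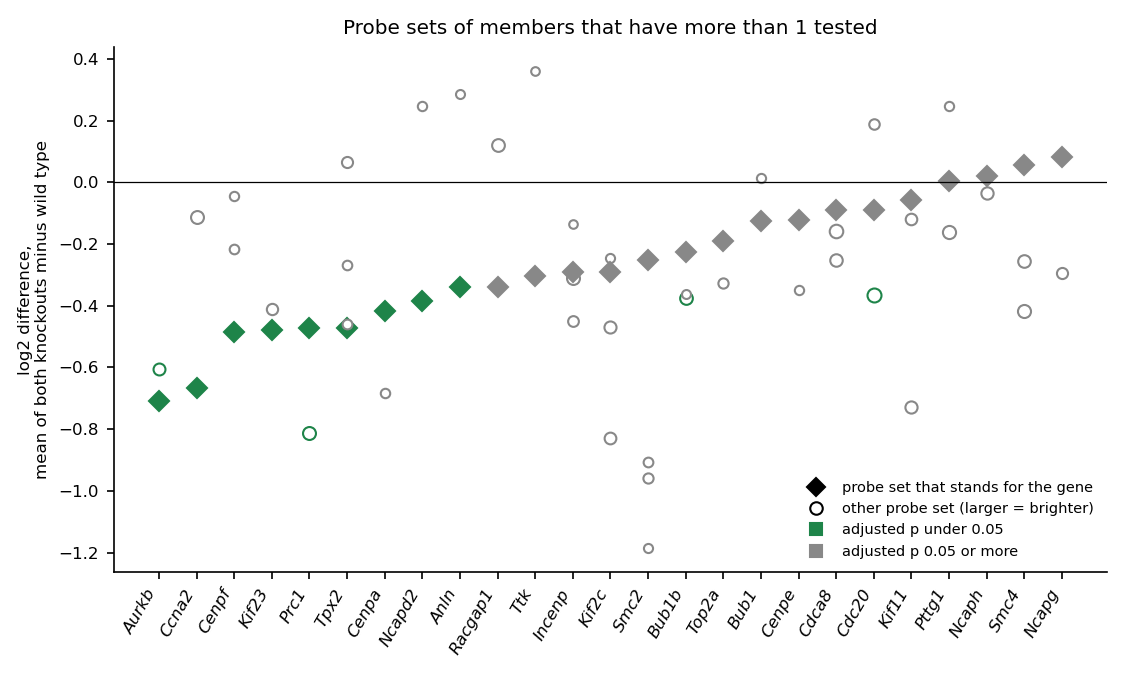
Log2 difference of the mean of both knockouts from wild type for each tested probe set of the mitosis genes that have several, from the fit over all 28694 probe sets, with diamonds for the probe set that stands for the gene and larger circles for brighter ones. Both Aurkb and both Prc1 probe sets are filled green or outlined green below 0 (adjusted p under 0.05), and most circles above 0 are small.

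The knockouts were also set against each other. No member passed between Sohlh2 and Sohlh1 knockout testes in the limma fit, and 0% of all genes did, Sohlh1 and Sohlh2 themselves included. A fit as labelled that does not call the deleted genes cannot show whether members differ. Of the members, 3 had an unadjusted p under 0.05. These were Birc5, Cdca8 and Mki67, higher in Sohlh2 knockout by 0.26 ± 0.10, 0.27 ± 0.12 and 0.27 ± 0.12 on the log2 scale, each with an adjusted p of 1.00. Without the 2 arrays of doubted label these were 0.21, 0.29 and 0.12, and Mki67 read highest, at 3217, on the array labelled Sohlh2 knockout 1. The count was also 0 under every alternative run, those without the 2 arrays of doubted label included. Without these 2, 0.0148% of all genes were lower in Sohlh2 knockout, and without the 3 doubted arrays 0.015%. A count of 0 members is near those shares and does not show that the knockouts agree. For Aurkb, Plk1, Tpx2 and Ccna2 the difference between knockouts as labelled was 0.012 ± 0.10, 0.0053 ± 0.12, 0.0065 ± 0.099 and 0.035 ± 0.13. Without the 2 arrays of doubted label it was 0.070, 0.090, -0.042 and 0.12. On all arrays the median of the difference between knockouts over the 41 members was 0.081, with 6 of 41 below 0. Without Sohlh2 knockout 3-1 the median was 0.042, with 18 of 41 below 0, and without Sohlh1 knockout 4 it was 0.049. It was 0.13 with Sohlh1 knockout 2 and Sohlh2 knockout 1 left out, and 0.14 without the 3 doubted arrays.

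Array by array, the median member lay at -0.23, -0.30, -0.41 and -0.31 (log2 from the wild-type mean) on Sohlh1 knockout 2, 3, 4 and 5, and at -0.28, -0.10, -0.20 and -0.26 on Sohlh2 knockout 1, 3-1, 4 and 5. The wild-type arrays lay between -0.044 and 0.063. By this median of the members, Sohlh2 knockout 3-1 was the knockout array closest to wild type. Over markers of differentiating spermatogonia its median, -1.72, was the lowest of any array. Members above the highest wild-type array numbered 6 on Sohlh1 knockout 2, 10 on the array labelled Sohlh2 knockout 1 and 7 on Sohlh2 knockout 3-1, and 1 in all on the other 5. The first 2 of these are the arrays of high 3' to 5' ratio, whose part in those readings was not tested.

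**Figure D4:**
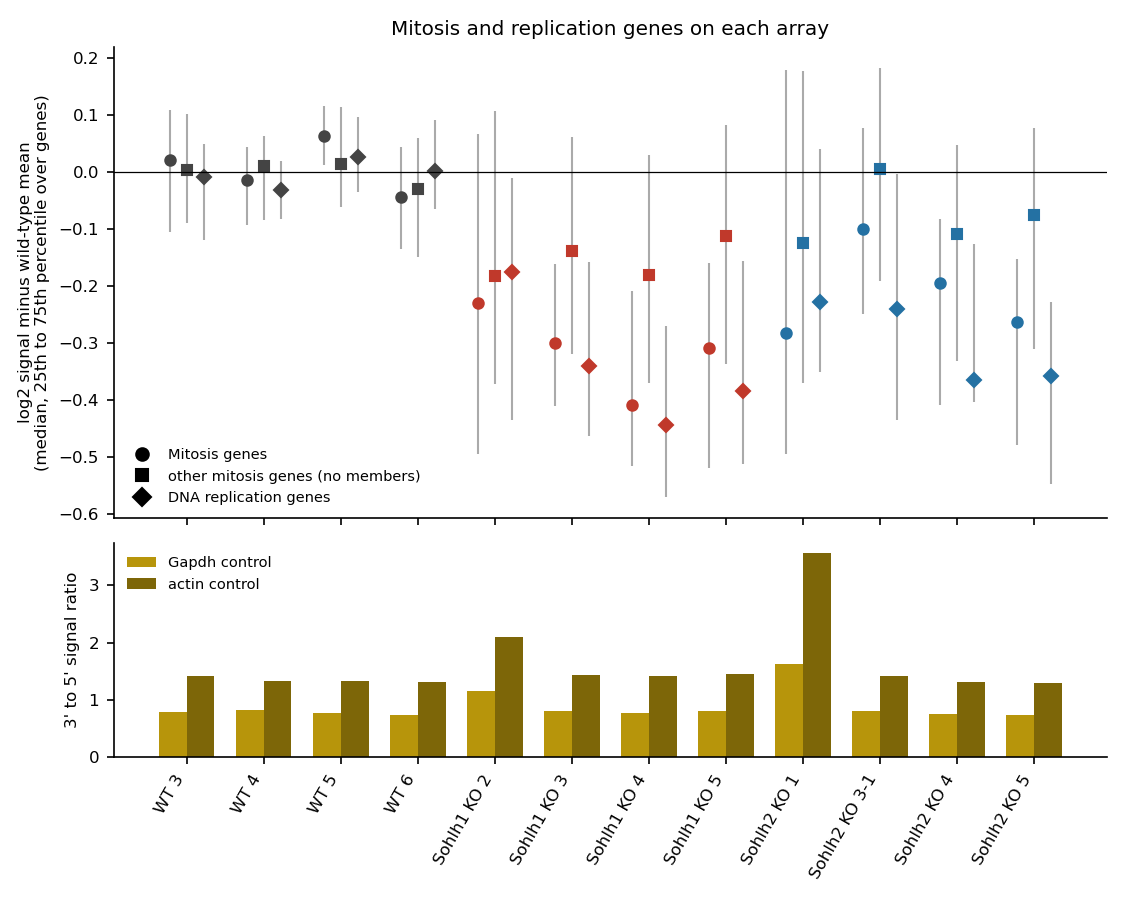
Median log2 signal relative to the wild-type mean on each array (upper panel, bars from the 25th to the 75th percentile over genes) for the mitosis genes, other mitosis genes and DNA replication genes, above the 3' to 5' ratio of the Gapdh and actin controls (lower panel). The mitosis genes lie below 0 on all 8 knockout arrays, from -0.41 to -0.10, and the ratios are highest on Sohlh1 knockout 2 and Sohlh2 knockout 1.

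With both knockouts averaged, 3.88% of all genes tested fell and 3.05% rose. Beside that, of 100 other mitosis genes tested 16 fell and 1 rose, with a median of -0.10. The 3 with the smallest p were Ccnf, which encodes the substrate receptor cyclin F, at -0.80 ± 0.088 (adjusted p = 2.59e-05), Cdca2, a phosphatase subunit of anaphase chromatin, at -0.69 ± 0.12 (adjusted p = 0.00268), and Trip13, a remodeller of checkpoint proteins, at -0.50 ± 0.095 (adjusted p = 0.00401). The replication genes, expressed ahead of mitosis, had 15 of 32 lower, 0 higher and a median of -0.31. Among them the ribonucleotide reductase gene Rrm2 gave -0.61 ± 0.086 (adjusted p = 0.000314), the licensing inhibitor Gmnn -0.57 ± 0.080 (adjusted p = 0.000333) and the origin recognition gene Orc1 -0.73 ± 0.11 (adjusted p = 0.000814).

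Cell type markers moved beside the mitosis genes. Their counts, with both knockouts averaged, stand beside 3.88% of all genes lower and 3.05% higher. Of 10 markers of differentiating spermatogonia 6 fell and 1, Rec8, rose, with a median of -1.40. Their summed signal was 19626 to 22867 on wild-type arrays, 13778 to 14375 on Sohlh1 knockout arrays and 14367 to 16885 on Sohlh2 knockout arrays. Kit, the receptor that marks these cells, went from 1739 ± 176 (SD, n = 4) to 448 ± 78.2 (SD, n = 8), a log2 difference of -1.94 ± 0.13 (adjusted p = 1.29e-07). Of 15 markers of undifferentiated spermatogonia 2 fell and 4 rose, with a median of 0.30. Of 16 markers of germ cells at any stage 3 fell and 2 rose, with summed signals of 38565 to 44366, 35130 to 40365 and 37347 to 41158 in the same order of groups. None of the 18 Sertoli cell markers passed in limma, 3 having an unadjusted p under 0.05, with a median of 0.11. Their sums were 122834 to 139802, 139521 to 154596 and 130105 to 143689. None of 6 Leydig cell, 8 endothelial or 8 leukocyte markers passed, with 0 unadjusted p under 0.05, and 1 of 8 peritubular muscle markers fell. The part of these shifts in the values of the mitosis genes was not tested.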

How the data were processed

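Whole-testis RNA was hybridised to Affymetrix arrays with 1 label, 12 in all and 4 for each genotype. The deposited values are probe set intensities on a linear scale, and the submitters' processing notes name MAS5 and GCOS, with versions not given in the sources. Each array was scaled to a trimmed mean of 500 over all but the outer 2% of values at each end, as the deposited values show. The annotation gave 1 symbol to 34945 probe sets, several to 932 and none to 9160, and probe sets with several symbols were not used. Of the symbols' Entrez identifiers 34741 matched the GRCm38.p6 gene table, with 0 changed. The 64 control probe sets served only for the 3' to 5' ratios.

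Signals were taken as log2(value + 14.2), the offset being the 20th percentile of all values, so differences of dim genes are understated. A probe set was kept where 4 or more arrays exceeded 48.6, the 40th percentile. A gene was represented by its probe set of highest mean log2 value. A single limma fit (limma 3.58.1, R 4.3.3, empirical Bayes with a variance trend) covered the 12 arrays, with Benjamini-Hochberg adjustment over all 13702 genes, or over 28694 probe sets. The average of both knockouts was the mean of both knockouts' log2 means minus that of wild type. The script was tested on simulated data. The number of arrays limits the precision.

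The deviations of same-numbered arrays correlated at -0.035 to 0.079 over 7 pairs, and those of differently numbered arrays at -0.19 to 0.28 over 39. The 0.28 was between Sohlh1 knockout 2 and Sohlh2 knockout 1, the arrays of high 3' to 5' ratio, and was the only value over 0.1. Same-numbered arrays thus showed no pairing in these correlations, which cannot show that they shared no batch. No columns were identical, and the closest arrays correlated at 0.974. The members, lists and tests were chosen with earlier results of these data known. The members given on every array were those with the smallest p in each role, 2 a role. For the other mitosis genes and the replication genes the 3 with the smallest p were named. Of the cell type markers only Kit and Rec8 were named. Other scalings, filters, offsets, probe set choices, variance models and sets of arrays were run as alternatives.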

Additional observations from a re-analysis of the deposited data

Results flagged for a closer look

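In 7 of the 123 sets of 4 arrays checked (41 genes in 3 groups), a single array lay far from the other 3, judged by its gap to the nearest of them as a share of the group's range. Chance alone gives about 1 in 20. Among wild-type arrays, Bub1b was lowest on wild type 4, at 1249 against 1468 to 1489 (share 0.920), and Mki67 highest on wild type 3, at 2590 against 2284 to 2326 (share 0.856). Among arrays labelled Sohlh1 knockout, Ttk was highest on Sohlh1 knockout 2, at 1262 against 999 to 1040 (share 0.830), and Cdca8 highest on Sohlh1 knockout 5, at 3458 against 2703 to 2748 (share 0.934). Among arrays labelled Sohlh2 knockout the array numbered 1 stood apart in 3 genes, in different directions. On it Cdc20 was highest, at 8571 against 5508 to 5834 (share 0.870), Ncapg was highest, at 1100 against 855 to 878 (share 0.895), and Kif20a was lowest, at 875 against 1305 to 1347 (share 0.928). Sohlh1 knockout 2 and Sohlh2 knockout 1 are the arrays of high 3' to 5' ratio, and Sohlh1 knockout 5 and Sohlh2 knockout 1 those whose targeted genes go against their labels. The part of either in these readings was not tested.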

How the results depend on the processing

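No alternative raised a member at an adjusted p under 0.05 against wild type, and the medians of the members kept their sign under each. The number of members lower in Sohlh1 knockout, 14, was 8 when each gene's probe sets were averaged, beside 1.8% of all genes lower. It was 9 to 16 without each array, beside 1.38% to 4.14% of all genes lower. The 7 in Sohlh2 knockout became 4 without probe sets of the _x_at, _s_at and _a_at kinds, beside 1.89% of all genes lower. That choice left 32 members to test and none of the probe sets of Aurkb, Kif20a and Prc1. The 7 became 15 with array weights, under which the share of all genes lower in Sohlh2 knockout went from 2.15% to 4.16%. They became 4 to 11 without each array, beside 1.07% to 2.33% of all genes lower. The 15 of both averaged became 9 to 16 without each array, beside 1.96% to 4.8% of all genes lower. The 17 probe sets became 11 after median centring, 10 without a variance trend and 7 to 18 without each array, reaching 10, 7 and 10 without wild type 4, 5 and 6. The shares of all probe sets under these alternatives were not computed. The 10 genes whose groups lay apart became 6 when probe sets were averaged, and the share of all genes lying apart was not computed then. That averaging turned the sign of Ttk (0.027 for Sohlh1, 0.032 for Sohlh2 and 0.029 for both), of Ncapd2 for Sohlh2 (0.033) and of Anln for Sohlh1 (0.019). Their added probe sets were dim, and the cause was not tested. Over 18 single genes and their comparisons with wild type, 1320 of 1482 values kept direction and side of the threshold, 105 lost the threshold, 52 gained it and 5 changed sign.

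With the replicate number as a block, which the correlations do not bear out as a pairing, the counts were 16 and 19 for Sohlh1, 4 and 9 for Sohlh2 and 17 and 19 for both averaged, with number 3-1 as its own number and counted as 3. The shares of all genes lower were, in the same order, 2.04% and 2.45%, 0.737% and 1.92%, and 2.9% and 3.59%. With both codings of 3-1 the block ended the calls of Espl1 for both averaged (adjusted p of 0.155 and 0.0963) and for Sohlh1 (0.204 and 0.166), of Ncapd2 for Sohlh1 (0.0881 and 0.0637) and of Ccna2 for Sohlh2 (0.140 and 0.0585). With 3-1 as its own number it also ended those of Ncapd2 for both averaged (0.0989) and, for Sohlh2, of Kif20a (0.147), Tpx2 (0.121), Cenpf (0.0850) and Prc1 (0.0785).

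The limits are the 4 arrays a group, the 2 arrays whose targeted genes go against their labels, the 2 of high 3' to 5' ratio, and RNA from whole testis. Probe sets of 1 gene differed for several members.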
